A study of Mus musculus with 12 samples.

Results

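A set of 9 genes that control the amount, shape and turnover of mitochondria was followed in poly(A)-selected RNA sequencing of primary mouse chondrocytes, the cells that build and maintain cartilage matrix. The 9 genes were taken by name from the 57010 gene IDs of the deposited count files: Ppargc1a, Ppargc1b, Nrf1 and Tfam for biogenesis, Opa1, Mfn1 and Mfn2 for fusion, Dnm1l for fission, and Pink1 for mitophagy. All 9 passed the filter on low counts and were tested. The 12 libraries fell into 3 groups of 4, labelled Control, WT and SIRT5F101L mutant, all from cells of wild-type genotype. Per the labels, the chondrocytes received by transfection either a wild-type plasmid or a plasmid for the SIRT5F101L mutant. SIRT5, found mainly in mitochondria, strips malonyl, succinyl and glutaryl groups from lysines, and the mutant is called SIRT5F101L here. What the Control cells received is not given in the labels, nor are the time after transfection, the age and sex of the mice, or any pooling of animals. It is also not given whether the 4 libraries of a group came from separate animals or cultures, so p-values measure only the spread between these libraries, which may be technical.

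Mitochondria are made from the products of 2 genomes. PGC-1α, encoded by Ppargc1a, is a coactivator that binds nuclear receptors and other transcription factors, among them nuclear respiratory factor 1 (Nrf1), and raises the transcription of nuclear genes for mitochondrial proteins. One of these is Tfam, whose protein packages mitochondrial DNA and is needed to transcribe it. Existing mitochondria join through the mitofusins (Mfn1 and Mfn2) on the outer membrane and OPA1 on the inner membrane, and divide when the dynamin-related GTPase DRP1 (Dnm1l) constricts them. PINK1 is a kinase that builds up on damaged mitochondria and phosphorylates ubiquitin there, which marks them for mitophagy. Cartilage is poorly supplied with oxygen and its cells rely largely on glycolysis, yet loss of mitochondrial function in chondrocytes is a known feature of osteoarthritis.

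The start of 4 of these genes is shown first, because Ppargc1a, Tfam, Opa1 and Pink1 are the members whose levels differed from Control, with no overlap between libraries, in both plasmid groups. RefSeq windows on GRCm38.p6, which run from 250 bases before to 50 bases after a start site, were searched for 8 of the 9 genes. No window of Ppargc1b was searched. Each line gives the 150 bases before the start site, 5′ to 3′ on the strand of the gene, and capitals mark matches to the motifs described next.
Ppargc1a (chr5:51567726-51567875, minus strand): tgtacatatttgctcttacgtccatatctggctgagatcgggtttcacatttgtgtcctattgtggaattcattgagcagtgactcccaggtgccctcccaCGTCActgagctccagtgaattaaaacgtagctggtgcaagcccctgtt
Tfam (chr10:71238045-71238194, minus strand): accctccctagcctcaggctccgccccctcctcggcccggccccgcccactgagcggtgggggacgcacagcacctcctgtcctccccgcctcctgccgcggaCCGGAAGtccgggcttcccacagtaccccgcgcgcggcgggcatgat
Opa1 (chr16:29579184-29579333, plus strand): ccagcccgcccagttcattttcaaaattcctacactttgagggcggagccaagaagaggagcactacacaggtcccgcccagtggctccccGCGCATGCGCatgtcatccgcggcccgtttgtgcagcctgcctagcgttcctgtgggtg
Pink1 (chr4:138326297-138326446, minus strand): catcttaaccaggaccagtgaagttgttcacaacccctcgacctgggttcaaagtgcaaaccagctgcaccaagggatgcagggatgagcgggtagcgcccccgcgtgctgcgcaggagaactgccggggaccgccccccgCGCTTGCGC

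Motifs were searched as letters on both strands, and positions count from the start site, with negative values before it. The core of the NRF1 site, GCGCANGCG, was found in Opa1 at -59 and, overlapping it on the other strand, at -58, and in Pink1 at -9 on the reverse strand. It was present in 6.25% of all 32841 RefSeq windows. A GABP/ETS match, CCGGAAG (8.86% of windows), lay at -47 in Tfam, at -44 in Mfn1 and at 13 on the reverse strand in Dnm1l. In Ppargc1a a CRE half-site, TGACG (20.8% of windows), lay at -49 on the reverse strand. The same half-site occurred in Mfn1 and several times in Mfn2, and an AP-1 match, TGANTCA (7.81% of windows), at -234 in Opa1, outside the stretch shown. No member window held the letters AAGGTCA of the ERR site, TGACGTCA of the full CRE, CACGTG of the E-box, TGTTTAC of FOXO or the NF-kB motif. Those letters occur in 4.72%, 1.79%, 7.15%, 3.65% and 4.51% of windows. The GC content of the stretches shown was 48% for Ppargc1a, 75.3% for Tfam, 61.3% for Opa1 and 64% for Pink1. These matches describe sequence only, and binding was not measured.

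Library totals ran from 15095357 to 24242139 counts. Levels are given as CPM, library-scaled counts (TMM scaling), and a gene was called when its adjusted p was under 0.05 in edgeR's quasi-likelihood fit of all 14253 tested genes. Sirt5 averaged 0.688 ± 0.169 CPM in Control, 0.384 ± 0.229 in WT and 0.721 ± 0.346 in SIRT5F101L libraries (SD, n = 4), from 1 to 19 counts per library. It was not called in either plasmid group against Control (log2 fold change -0.86, adjusted p 0.143, and 0.03, adjusted p 0.954). The species of the plasmid inserts is not given in the labels, and reads from an insert that is not mouse Sirt5 need not be counted at this ID. The counts therefore neither show nor exclude the plasmids, and the group names used here are those of the labels. All 8 chondrocyte markers exceeded 3 counts in every library. Their summed level was 9040 to 11300 CPM in Control, 2810 to 2930 in WT and 2290 to 2540 in SIRT5F101L libraries. Most of that sum was Col2a1 and Comp, which fell (log2 fold changes -2.01 and -2.36 for Col2a1, -3.26 and -3.44 for Comp), whereas Hapln1 rose in both plasmid groups (0.25 and 0.18) and Acan rose in WT (0.47, and 0.10, not called, in SIRT5F101L). The remaining markers, Col9a1 (-3.25), Matn3 (-3.53), Col11a1 (-1.38) and Sox9 (-0.20), were called lower in WT. Their means were lower than in Control in SIRT5F101L too. The summed level of 5 fibroblast markers, mostly Col1a1 and Col3a1, was 17300 to 20500, 6060 to 6890 and 5920 to 6860 CPM, although Pdgfra of that list rose (0.39 and 0.62). That of 7 macrophage markers was 161 to 198, 83.5 to 96.0 and 83.0 to 107 CPM. The adipocyte list (202 to 226 CPM in Control, 84.9 to 104 in the plasmid groups) and the osteoblast list (14.8 to 22.3, and 1.13 to 2.05) had lower sums there. In the adipocyte list Lpl fell, from 191 to 55.7 and 65.0 CPM, while Fabp4 rose (0.39 and 0.31). Skeletal muscle markers summed to 8.63 to 8.95 CPM in Control, 2.44 to 4.17 in WT and 2.21 to 3.53 in SIRT5F101L. Endothelial markers overlapped between groups, at 3.50 to 4.53, 2.60 to 3.75 and 2.93 to 3.91 CPM. All of these sums but the endothelial one thus moved with the division between Control and plasmid libraries, which is also the contrast of the results against Control below, and their part in those results was not tested. The slope of level against transcript length, both on a log2 scale, was 0.635 to 0.654 in Control, 0.655 to 0.730 in WT, 0.635 in SIRT5F101L replicate 1 and 0.755 to 0.773 in the other 3 libraries of that group. A fit with that trend removed is named below where it changed the call of a member. In bulk RNA, fewer cells of a type and less RNA per cell cannot be told apart. On the second principal component (5.66% of the variance) SIRT5F101L replicate 1 lay at 20.3, the other 3 of its group at -23.5 to -17.0 and WT libraries at -1.07 to 20.1, so the members' values for that group are also given without it. As that library was singled out from these same data, adjusted p-values from fits without it are descriptive.

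Against Control, the regulators went in both directions. Ppargc1a, Opa1 and Mfn2 rose and Tfam and Pink1 fell in both plasmid groups, and Dnm1l rose in SIRT5F101L libraries. Ppargc1b, Nrf1 and Mfn1 were called in neither. In WT libraries 5 of 9 members were called, 3 higher and 2 lower, where 56.8% of all tested genes were called, 28.7% higher and 28.1% lower. In SIRT5F101L libraries 6 of 9 were called, 4 higher and 2 lower, where the share of all genes was 60.7%, with 30.0% higher and 30.7% lower. The groups did not overlap for 5 members in WT (53.5% of all genes) and for 4 in SIRT5F101L (51.3% of all genes). These shares are near those of the whole table. The median absolute log2 fold change was 0.31 over the members and 0.37 over all genes in WT, and 0.28 and 0.40 in SIRT5F101L. Without SIRT5F101L replicate 1, 7 of 9 members were called against Control, the same 6 and Mfn1, where 63.2% of 14528 genes were called. The log2 fold changes were then 1.36 for Ppargc1a, 0.27 for Ppargc1b, -0.12 for Nrf1, -0.29 for Tfam, 0.60 for Opa1, 0.23 for Mfn1, 0.23 for Mfn2, 0.36 for Dnm1l and -1.30 for Pink1. Both comparisons use the same 4 Control libraries, so their likeness is not independent evidence.

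**Figure D1:**
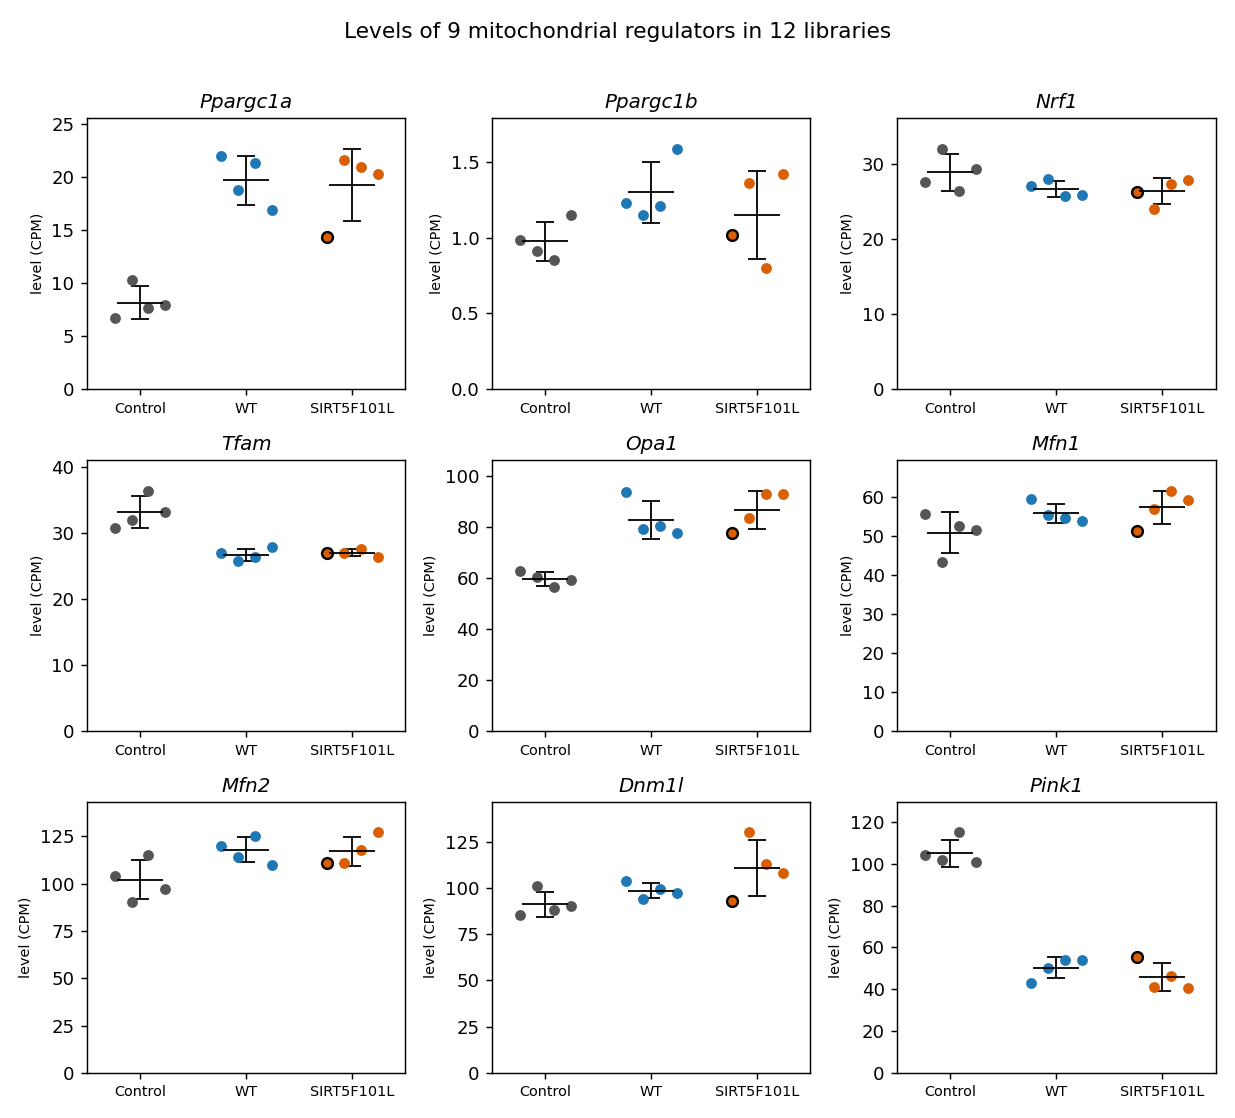
Level (CPM, linear axes from 0) of each of the 9 regulators in the 12 libraries, with the mean and SD of each group as bars and SIRT5F101L replicate 1 outlined in black. Ppargc1a and Opa1 sit higher, and Tfam and Pink1 lower, in all 8 plasmid libraries than in all 4 Control libraries.

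Among the biogenesis regulators the coactivator rose while the mitochondrial DNA-packaging factor fell. Ppargc1a (ENSMUSG00000029167) was at 6.74, 10.3, 7.62 and 7.92 CPM in the Control libraries, at 22, 18.8, 21.3 and 16.9 in WT, and at 14.3, 21.6, 21 and 20.3 in SIRT5F101L. Every plasmid library lay above every Control library, and the lowest of them was SIRT5F101L replicate 1. The level was 2.41-fold higher in WT (95% interval 1.96 to 2.97, log2 fold change 1.27, SE 0.14, adjusted p 2.35e-07) and 2.36-fold higher in SIRT5F101L (1.92 to 2.90, log2 fold change 1.24, SE 0.14, adjusted p 3.14e-07). Tfam (ENSMUSG00000003923) was at 30.7, 32.0, 36.4 and 33.2 CPM in Control, at 27.0, 25.7, 26.3 and 27.8 in WT, and at 26.9, 26.9, 27.6 and 26.4 in SIRT5F101L. The 8 plasmid libraries spanned only 25.7 to 27.8 CPM, all below the lowest Control library. Tfam was 1.24-fold lower in WT (log2 fold change -0.31, SE 0.07, adjusted p 0.00121) and 1.23-fold lower in SIRT5F101L (-0.30, SE 0.07, adjusted p 0.00156).

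The transcription factor Nrf1 (ENSMUSG00000058440), through which PGC-1α acts on Tfam, was at 27.6, 32.1, 26.4 and 29.3 CPM in Control, 27.1, 28.0, 25.8 and 25.9 in WT, and 26.3, 24, 27.4 and 27.9 in SIRT5F101L. The groups overlapped, and the log2 fold changes of -0.11 (95% interval -0.28 to 0.05, adjusted p 0.241) and -0.13 (-0.29 to 0.04, adjusted p 0.180) did not pass. With each library's trend of level on transcript length removed, Nrf1 did pass, at -0.22 in WT (adjusted p 0.0222) and -0.32 in SIRT5F101L (adjusted p 0.00157). Ppargc1b (ENSMUSG00000033871), which encodes the related coactivator PGC-1β, was at the edge of detection, with 16 to 31 counts per library. It was at 0.988, 0.913, 0.852 and 1.15 CPM in Control, 1.23, 1.15, 1.21 and 1.59 in WT, and 1.02, 1.36, 0.802 and 1.42 in SIRT5F101L. The WT libraries did not overlap Control, though the lowest WT and the highest Control library were equal after rounding, and the test did not pass (log2 fold change 0.42, 95% interval -0.19 to 1.02, adjusted p 0.229). In SIRT5F101L the value was 0.22 (-0.39 to 0.83, adjusted p 0.542). At this depth a difference of the size seen for Ppargc1a, 1.27, lies outside both intervals.

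The wider biogenesis list held 36 partners, of which 35 were tested. In WT 11 rose and 6 fell (48.6% called, median log2 fold change 0.11), and in SIRT5F101L 11 rose and 8 fell (54.3%, median 0.09), where 56.8% and 60.7% of all tested genes were called. Without SIRT5F101L replicate 1, 23 were called in SIRT5F101L, where the share over all genes was 63.2%. The highest was Perm1, a muscle-enriched regulator that acts downstream of PGC-1α. It rose from 2.38 ± 0.289 CPM to 8.62 ± 0.895 in WT and 8.37 ± 1.41 in SIRT5F101L (SD, n = 4), log2 fold changes of 1.85 and 1.81 (adjusted p 5.50e-09 and 7.32e-09). The lowest was Pparg, the fat-cell nuclear receptor that PGC-1α was first found to coactivate. It fell from 18.6 ± 0.945 to 4.60 ± 0.468 and 4.70 ± 1.02 CPM (-2.01 and -1.98, adjusted p 6.94e-11 and 7.48e-11). The 2 catalytic subunits of AMPK, the energy-sensing kinase that activates PGC-1α, moved in opposite directions. Prkaa1 (α1) rose from 15.1 to 21.6 and 24.2 CPM (0.52 and 0.68, adjusted p 5.38e-04 and 2.39e-05), and Prkaa2 (α2) fell from 9.32 to 5.56 and 5.87 CPM (-0.74 and -0.66, adjusted p 2.05e-04 and 5.73e-04). Kat2a, which encodes the acetyltransferase GCN5 that represses PGC-1α, rose by 0.54 and 0.41 (adjusted p 6.36e-07 and 2.25e-05).

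The list held 12 genes that transcribe, copy or maintain mitochondrial DNA, a subset formed after their values were seen: Tfb1m, Tfb2m, Polrmt, Tefm, Mterf3, Mterf4, Twnk, Polg, Polg2, Ssbp1, Top1mt and Mgme1. In WT Polrmt and Polg were called higher and Tefm and Ssbp1 lower, and in SIRT5F101L Polrmt higher and Tefm and Ssbp1 lower. The others were not called. The mitochondrial RNA polymerase Polrmt rose by 0.42 and 0.33 (adjusted p 1.14e-04 and 0.00118). Its elongation factor Tefm fell from 11.1 ± 1.28 to 8.0 ± 0.836 and 6.89 ± 1.24 CPM (-0.48 and -0.70, adjusted p 0.00514 and 1.66e-04). The matrix protease Lonp1, which degrades unbound TFAM, fell from 212 to 169 and 165 CPM (-0.33 and -0.36, adjusted p 1.66e-04 and 5.68e-05). Ssbp1, which coats single-stranded mitochondrial DNA, had values of -0.41 and -0.45 (adjusted p 9.06e-04 and 3.48e-04), and the DNA polymerase Polg 0.21 and 0.12 (adjusted p 0.0383 and 0.208). Among these only Tefm was named by the rule.

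In the fusion machinery the inner-membrane gene Opa1 rose in both plasmid groups, while the outer-membrane mitofusins gave small values at the edge of the threshold. Opa1 (ENSMUSG00000038084) was at 62.7, 60.2, 56.5 and 59.2 CPM in Control, at 93.6, 79.4, 80.3 and 77.6 in WT, and at 77.7, 83.7, 93.0 and 93.0 in SIRT5F101L. All plasmid libraries exceeded all Control libraries, with WT replicate 1 well above the other 3 of its group. Opa1 was 1.39-fold higher in WT (95% interval 1.25 to 1.55, log2 fold change 0.47, SE 0.07, adjusted p 1.78e-05) and 1.46-fold higher in SIRT5F101L (1.31 to 1.62, 0.54, SE 0.07, adjusted p 2.90e-06). Without WT replicate 1 the value in WT was 0.41 and was still called.

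Mfn2 (ENSMUSG00000029020) was at 104, 90.5, 115 and 96.9 CPM in Control, 120, 114, 125 and 110 in WT, and 111, 111, 118 and 127 in SIRT5F101L. The groups overlapped through Control replicate 3, the highest Control library. The rise was small, 1.16-fold in WT (log2 fold change 0.21, SE 0.07, adjusted p 0.0180) and 1.15-fold in SIRT5F101L (0.20, SE 0.07, adjusted p 0.0213). It no longer passed with upper-quartile scaling (0.16 in both groups, adjusted p 0.0606 and 0.0621), nor in either comparison without Control replicate 2 (0.16 and 0.15, adjusted p 0.0781 and 0.0913) or Control replicate 4 (0.19 and 0.18, adjusted p 0.0565 and 0.0653). The call was also lost in WT without WT replicate 3 (0.18), and in SIRT5F101L without SIRT5F101L replicate 4 (0.16) and with the length trend removed (0.14). Mfn1 (ENSMUSG00000027668), the other mitofusin, was at 55.6, 43.3, 52.5 and 51.4 CPM in Control, 59.4, 55.2, 54.6 and 53.8 in WT, and 51.3, 56.9, 61.4 and 59.2 in SIRT5F101L. Its groups overlapped, and its values of 0.14 (95% interval -0.03 to 0.30, adjusted p 0.144) and 0.18 (0.01 to 0.34, adjusted p 0.0586) did not pass. In SIRT5F101L it passed with RLE scaling (0.19, adjusted p 0.0491), without Control replicate 1 (0.22) and without SIRT5F101L replicate 1 (0.23, adjusted p 0.00740).

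The fission GTPase gene Dnm1l (ENSMUSG00000022789) was at 85.6, 101, 87.9 and 90.0 CPM in Control, 104, 94.0, 99.3 and 97.2 in WT, and 93.0, 130, 113 and 108 in SIRT5F101L. SIRT5F101L replicates 2, 3 and 4 lay above all Control and WT libraries, while replicate 1 lay within the Control range. Dnm1l rose 1.22-fold in SIRT5F101L against Control (log2 fold change 0.28, SE 0.08, adjusted p 0.00530), and by 0.36 without replicate 1. In WT its value was 0.11 (95% interval -0.06 to 0.28, adjusted p 0.246) and was not called. Of the Dnm1l exon sequence 4.67% overlaps Gm49521, and 5.7% of its longest transcript has a copy elsewhere at 95% identity, so a small share of its counts is uncertain.

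**Figure D2:**
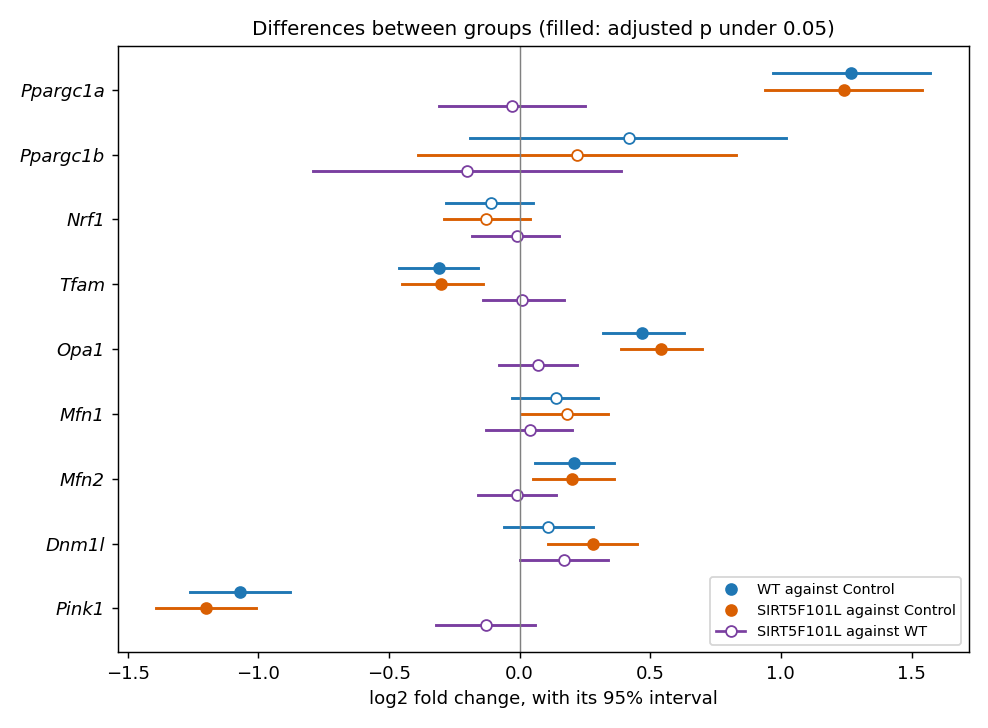
Log2 fold change of each regulator with its 95% interval for the 3 comparisons, with filled points for an adjusted p under 0.05. Against Control, Pink1 lies at -1.07 and -1.20 and Ppargc1a at 1.27 and 1.24, and all 9 points of SIRT5F101L against WT are open.

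Of 37 further genes for fusion, fission and cristae shape 36 were tested. In WT 13 rose and 6 fell (52.8% called, median log2 fold change 0.09), and in SIRT5F101L 12 rose and 6 fell (50.0%, median 0.01), below the shares over all genes of 56.8% and 60.7%. Without SIRT5F101L replicate 1, 21 were called in SIRT5F101L (63.2% over all genes). With the length trend removed, 24 were called in WT, so the lower share in WT depends on the processing. Over the alternative settings with all groups complete, 7627 to 8502 of all genes were called in WT. Highest of the genes named by rule was Trak2, an adaptor that couples mitochondria to motor proteins, which rose from 49.4 ± 1.24 CPM to 94.7 ± 6.36 in WT and 108 ± 12.4 in SIRT5F101L (SD, n = 4). Its log2 fold changes were 0.94 and 1.12 (adjusted p 2.44e-09 and 1.35e-10). Inf2, a formin that assembles actin at sites of fission, rose from 197 ± 7.87 to 377 ± 18.1 and 371 ± 16.7 CPM (0.93 and 0.91, adjusted p 2.43e-11 and 3.54e-11). The lowest of the genes named by rule were parts of MICOS, the complex that holds cristae junctions. Chchd6 fell from 18.5 ± 1.38 to 11 ± 1.13 and 10.6 ± 0.809 CPM (-0.75 and -0.79, adjusted p 2.40e-06 and 1.07e-06). 2410015M20Rik, the listed symbol of Micos13, fell from 82.9 ± 1.96 to 54.9 ± 4.20 and 42.0 ± 12.7 CPM (-0.59 and -0.98, adjusted p 5.77e-04 and 2.20e-06).

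A few more genes of this list were named after their values were seen. Afg3l2, a protease of the inner membrane, rose from 64.5 to 102 and 96.4 CPM (0.66 and 0.58, adjusted p 1.94e-08 and 1.15e-07). Oma1, which cuts OPA1 under stress, had values of -0.21 and -0.16 and was not called (adjusted p 0.119 and 0.205). Nor was Yme1l1, the other OPA1 protease (-0.11 and 0.02, adjusted p 0.169 and 0.834), while the prohibitin gene Phb rose (0.50 and 0.40, adjusted p 2.66e-05 and 2.86e-04). Among DRP1 receptors Mief1 rose (0.48 and 0.47, adjusted p 5.73e-05 and 7.54e-05), Fis1 fell (-0.27 and -0.44, adjusted p 0.0175 and 4.10e-04), and Mff (-0.05 and -0.02, adjusted p 0.563 and 0.812) and Mief2 (-0.05 and -0.17, adjusted p 0.764 and 0.265) were not called. Immt, the core MICOS gene, rose by 0.42 and 0.47 (adjusted p 8.56e-06 and 1.78e-06), so MICOS genes differed in direction.

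The mitophagy kinase gene Pink1 (ENSMUSG00000028756) fell most of the 9. It was at 104, 102, 115 and 101 CPM in Control, at 43.2, 50.0, 53.8 and 53.9 in WT, and at 55.2, 41.0, 46.5 and 40.6 in SIRT5F101L. The highest plasmid library, SIRT5F101L replicate 1 at 55.2 CPM, was far below the lowest Control library. Pink1 was 2.10-fold lower in WT (log2 fold change -1.07, 95% interval -1.26 to -0.88, adjusted p 3.95e-09) and 2.30-fold lower in SIRT5F101L (-1.20, -1.39 to -1.01, adjusted p 6.66e-10). Of its exon sequence 6.7% overlaps Gm27646 and Mir7019, and 4.63% of its longest transcript has a near-identical copy in Gm27646, which leaves a small share of its counts uncertain. Over all alternatives and left-out libraries its value ran from -1.12 to -1.0 in WT and from -1.30 to -1.11 in SIRT5F101L.

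The mitophagy list as a whole did not share the direction of Pink1. Of 40 genes 37 were tested, with 9 higher and 12 lower in WT (56.8% called, median 0.01) and 10 higher and 12 lower in SIRT5F101L (59.5%, median -0.03), shares close to the 56.8% and 60.7% over all genes. Without SIRT5F101L replicate 1 the count in SIRT5F101L was again 22, while the share over all genes was 63.2%. Bnip3l, a mitophagy receptor that works without PINK1, rose from 185 ± 7.99 to 276 ± 9.06 and 288 ± 15.0 CPM (SD, n = 4; 0.58 and 0.64, adjusted p 3.38e-08 and 7.45e-09), and its relative Bnip3 rose by 0.23 and 0.24 (adjusted p 0.0355 and 0.0308). Atg9a, a membrane carrier of early autophagosomes, rose from 29.4 ± 0.603 to 44.7 ± 3.49 and 46.1 ± 4.98 CPM (0.60 and 0.65, adjusted p 3.15e-06 and 1.07e-06).

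Calcoco1, an autophagy receptor, fell from 110 ± 2.0 to 63.4 ± 2.16 CPM in WT (-0.80, adjusted p 2.17e-10) and was at 62.7 ± 2.69 in SIRT5F101L (SD, n = 4). Map1lc3a, one of the LC3 tags, fell from 96.4 ± 7.20 to 53.4 ± 12.7 CPM in SIRT5F101L (-0.85, adjusted p 2.11e-06) and was at 66.1 ± 5.10 in WT. The next genes of the list lie outside the rule and were chosen after their values were seen. Among the tags Map1lc3b fell by 0.42 and 0.48 on the log2 scale, Gabarap by 0.61 and 0.75 and Gabarapl1 by 0.23 and 0.32, while Gabarapl2 was not called (0.08 and 0.05). Among receptors for ubiquitin-marked cargo Sqstm1 (p62) fell by 0.53 and 0.56, Nbr1 (0.07 and 0.10) and Optn (-0.17 and -0.08) were not called, and Tax1bp1 was called in WT (-0.20) and not in SIRT5F101L (-0.03). Among receptors in the mitochondrial membrane Fkbp8 fell (-0.23 and -0.35) and Bcl2l13 rose (0.26 and 0.23). Of the initiating kinases Ulk2 fell (-0.51 and -0.33, adjusted p 2.34e-06 and 2.56e-04) and Ulk1 was not called, at 0.05 and 0.09 (adjusted p 0.530 and 0.190). Usp30, a deubiquitinase of the outer membrane that opposes mitophagy, was not called, at -0.03 and -0.04 (adjusted p 0.791 and 0.651). Of the listed genes not tested, Apool, Fundc1 and Tfe3 are X-linked and listed at 0, as are all X-linked IDs in these files, and Esrrg and Usp8 had too few counts.

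**Figure D3:**
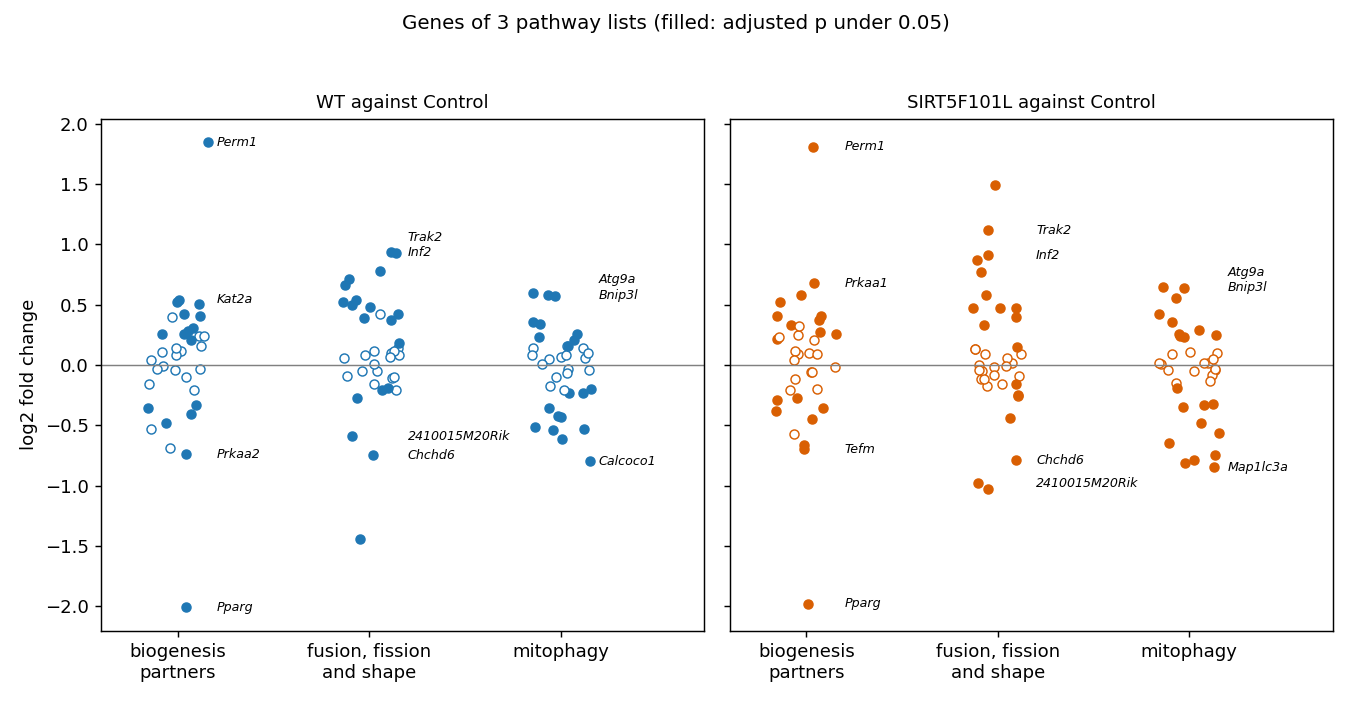
Log2 fold change against Control of the genes shown from the 3 pathway lists, with filled points for an adjusted p under 0.05 and names for genes chosen by rule. Each list spreads to both sides of 0, from Perm1 at 1.85 to Pparg at -2.01 in WT; the unnamed outer points of the middle list are Gdap1 (-1.44 in WT, -1.03 in SIRT5F101L) and Pld6 (1.49 in SIRT5F101L), whose mean was under 5 CPM.

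The plasmid groups were compared directly to ask whether the mutant differs from the wild-type plasmid. No member was called in SIRT5F101L against WT, by edgeR, at an unadjusted p under 0.05 or by DESeq2, and no member was without overlap. Over all genes 0.0421% were called, 6 of 14253, and 4.02% did not overlap. The median absolute log2 fold change was 0.04 over the members and 0.11 over all genes. For Ppargc1a the difference was -0.03 (95% interval -0.31 to 0.25), for Tfam 0.01 (-0.14 to 0.17), for Nrf1 -0.01 (-0.18 to 0.15) and for Mfn2 -0.01 (-0.16 to 0.14). Opa1 (0.07, -0.08 to 0.22) and Mfn1 (0.04, -0.13 to 0.20) had intervals of like width. The interval was widest for Ppargc1b, -0.79 to 0.39 around -0.20, where counts were lowest. Dnm1l at 0.17 (-0.00 to 0.34, adjusted p 0.419) and Pink1 at -0.13 (-0.32 to 0.06, adjusted p 0.567) lay farthest from 0 among the other 8. These intervals bound the difference at this depth and do not show that the plasmids act alike. None of the 3 pathway lists held a called gene in this comparison. An unadjusted p under 0.05 was found for 4 of 35, 7 of 36 and 7 of 37 genes, and for 1701 of 14253 over the whole table. With no filter beyond 1 count, 1 biogenesis, 2 fusion and fission and 2 mitophagy genes were called, among 354 in all.

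That comparison rested on a single library. SIRT5F101L replicate 1 lay outside the range of the other 3 libraries of its group for Ppargc1a, Opa1, Mfn1, Dnm1l and Pink1, and inside the WT range for 1 of these 5, Opa1. For Dnm1l it was at 93.0 CPM against 108 to 130 in the other 3, and for Pink1 at 55.2 against 40.6 to 46.5. Without it, Dnm1l was higher in SIRT5F101L than in WT (log2 fold change 0.25, SE 0.07, adjusted p 0.0113) and Pink1 lower (-0.23, SE 0.08, adjusted p 0.0418). These are 2 of 9 members, where 15.2% of 14528 genes tested, or 2213, were called. Replicate 1 was left out because of its place among these same libraries, near WT on the second principal component. The adjusted p-values and counts of that fit are therefore descriptive and not a separate test of the mutant. In the same fit 5 biogenesis partners, 10 genes of the fusion and fission list and 8 of the mitophagy list were called. They included Tomm7, which helps hold PINK1 at the outer membrane (-1.06, adjusted p 6.00e-08), 2410015M20Rik (-0.60, adjusted p 6.48e-06), Map1lc3a (-0.47, adjusted p 7.33e-05), Esrra, a nuclear receptor that works with PGC-1α (-0.46, adjusted p 1.05e-04), and Trak2 (0.27, adjusted p 0.00251). The slope of level against transcript length given above, higher in SIRT5F101L replicates 2, 3 and 4 than in replicate 1 and in WT, moved with this result, and its part in it was not tested.

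**Figure D4:**
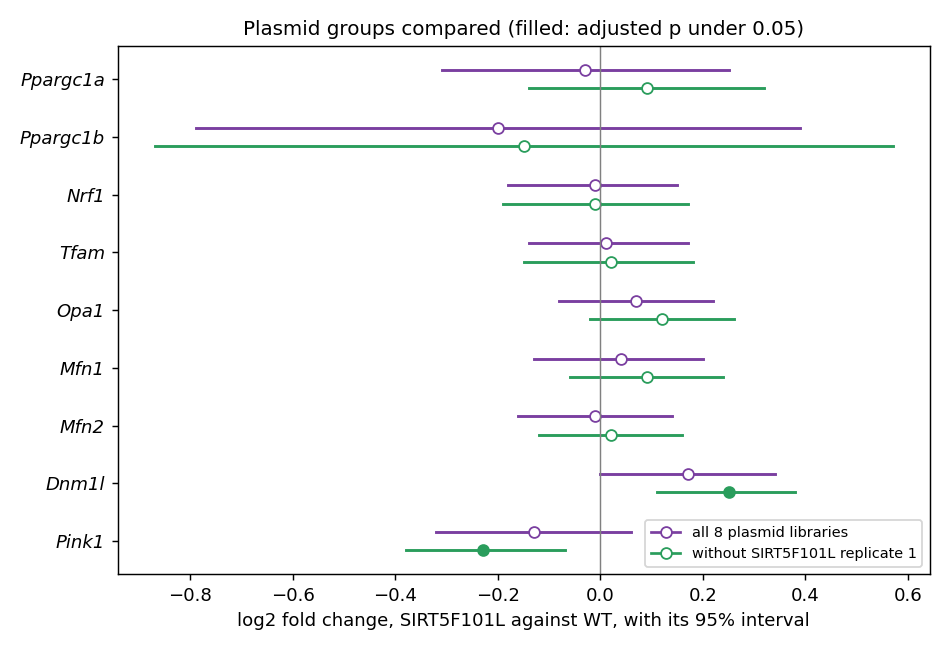
Log2 fold change of SIRT5F101L against WT with its 95% interval for each regulator, from all libraries and without SIRT5F101L replicate 1. Only Dnm1l (0.25) and Pink1 (-0.23) are filled, for an adjusted p under 0.05, and only when that library is left out.

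Levels were compared between the genes after division by exon length, as CPM per kb. In Control, Pink1 was the most abundant, at 39.5 ± 2.43 CPM per kb (SD, n = 4), with every library above those of the next gene. Mfn2 (19.5 ± 1.99) and Dnm1l (17.5 ± 1.31) followed and overlapped each other. Mfn1 (8.29 ± 0.858), Opa1 (7.57 ± 0.327) and Tfam (7.46 ± 0.549) overlapped as a second tier. Nrf1 (2.81 ± 0.242), Ppargc1a (1.24 ± 0.234) and Ppargc1b (0.244 ± 0.0320) came last and were separate from each other. The order differed in the plasmid libraries. Pink1, at 18.8 ± 1.89 in WT and 17.1 ± 2.54 in SIRT5F101L, lay below Mfn2 (22.6 ± 1.25 and 22.5 ± 1.51) without overlap, and overlapped Dnm1l (19.0 ± 0.805 and 21.3 ± 2.89) in both groups. Opa1, at 10.5 ± 0.934 and 11 ± 0.954, exceeded Mfn1 (9.11 ± 0.406 and 9.36 ± 0.712), without overlap in WT and with overlap in SIRT5F101L. Ppargc1a reached 2.99 ± 0.351 and 2.93 ± 0.516 and overlapped Nrf1 (2.60 ± 0.103 and 2.57 ± 0.167).

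**Figure D5:**
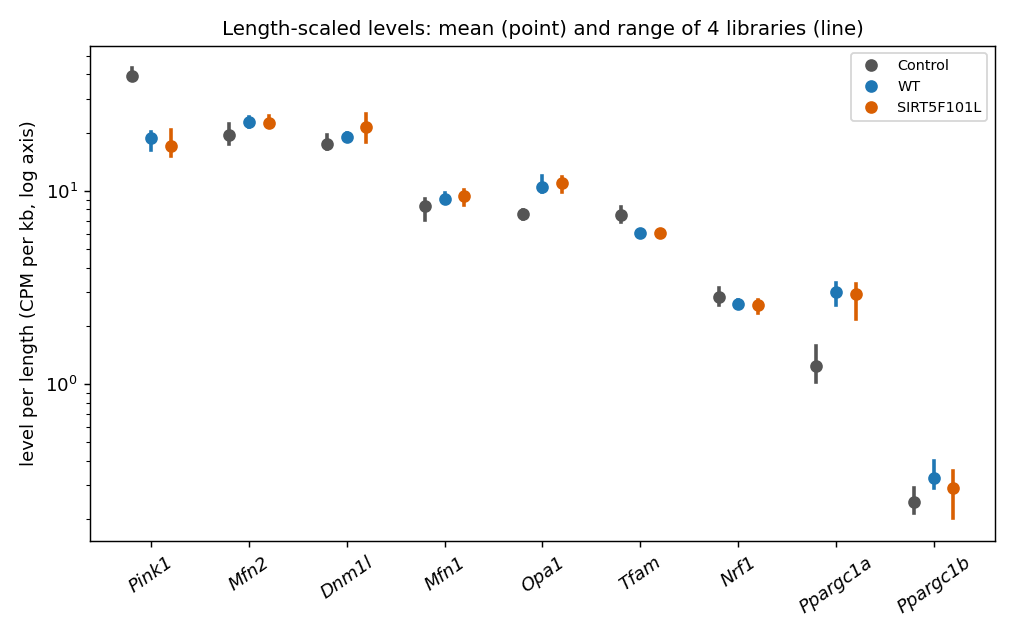
Level per exon length (CPM per kb, log axis) of the 9 regulators in the 3 groups, with the mean as a point and the range of 4 libraries as a line. Pink1 stands alone at the top in Control and lies below Mfn2 and overlaps Dnm1l in both plasmid groups.

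Ratios of CPM per kb within a library do not depend on library scaling and are given without a test. Opa1 to Dnm1l, fusion against fission, was 0.394 to 0.484 in Control, 0.528 to 0.595 in WT and 0.427 to 0.567 in SIRT5F101L, whose lowest value was replicate 2. WT lay wholly above Control by this measure, and SIRT5F101L overlapped it. Mfn1 to Mfn2 ranged over 0.389 to 0.454, 0.370 to 0.419 and 0.393 to 0.441, so the balance of the mitofusins overlapped in all groups. Pink1 to Dnm1l was 1.97 to 2.55 in Control, 0.808 to 1.08 in WT and 0.616 to 1.15 in SIRT5F101L. Ppargc1a to Nrf1 was 0.381 to 0.502 in Control, 1.02 to 1.29 in WT and 0.846 to 1.40 in SIRT5F101L. Both plasmid groups lay apart from Control in the last pair of ratios.

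For Ppargc1a, Opa1 and Pink1, the genes with the most similar profile over the 12 libraries were found among 10190 genes by the root-mean-square difference of centred log2 CPM. Closest to Ppargc1a were Prr11 (difference 0.121), Zswim6 (0.140) and Gpd2 (0.143), the last the mitochondrial glycerol-3-phosphate dehydrogenase. Their log2 fold changes were 1.18, 1.14 and 1.21 in WT and 1.18, 1.38 and 1.29 in SIRT5F101L. Closest to Opa1 were Sacm1l (0.051), Hmgxb3 (0.056) and Golga4 (0.060), at 0.47, 0.50 and 0.48 in WT and 0.56, 0.55 and 0.50 in SIRT5F101L. Closest to Pink1 were Igfbp6 (0.058), H1f0 (0.065) and Smpdl3a (0.075), at -1.05, -1.07 and -1.10 in WT and -1.21, -1.14 and -1.20 in SIRT5F101L. The libraries share the division into Control and plasmid groups, on which the first principal component holds 72.7% of the variance, so this likeness is given as a description.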

How the data were processed

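The authors deposited whole-number counts per Ensembl gene ID for each of 12 libraries, without a header. Per the submitters' processing notes, FastQC 0.11.9, HISAT2 2.2.1, HTSeq 2.0.2 and DESeq2 1.38.3 were used with the GRCm39 (mm39) genome. The strand setting and annotation are not given in the sources used here, so reads of overlapping genes on opposite strands cannot be told apart.

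Counts were joined by ID, and 52029 of 57010 IDs were paired with a symbol. In R 4.3.3, edgeR 4.0.16 (filterByExpr by group, TMM scaling, quasi-likelihood test, Benjamini-Hochberg over 14253 genes, adjusted p under 0.05) was fitted to all 12 libraries, with 9 residual degrees of freedom and a biological coefficient of variation of 9.18%. The fit was tested on simulated data with few genes changed in WT and none in SIRT5F101L. Far more genes were called in the real libraries, so that run does not vouch for these calls. Exon lengths came from GENCODE M21, which covers 98.8% of tested genes, and copies were sought with BLAST 2.17.0. That annotation is on another build than the counts, so gene coordinates are not given. Promoter windows came from RefSeq on GRCm38.p6.

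No 2 libraries were identical. Libraries of 1 group differed by 2.56 to 8.92 times sampling noise over 18 pairs. A total of 15095357 counts makes 1 count worth 0.0650 CPM after scaling, so a gene under 3 counts has no measured order.

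Replicate numbers only name libraries. Genes named from a list were, per comparison, the 2 highest and 2 lowest of the called genes that averaged 5 CPM or more without overlap between groups. One listed mitophagy gene counted in its list is not reported here. For profile likeness, 3 genes were named for each of Ppargc1a, Opa1 and Pink1. The members and lists were chosen with earlier results of these data known. Alternatives were RLE and upper-quartile scaling, other filters on low counts, a robust prior, fits of 8 libraries, DESeq2 1.42.0, a loess trend on transcript length (span 0.5) as offset, and leaving out each library.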

Additional observations from a re-analysis of the deposited data

Results flagged for a closer look

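WT replicate 1 stood apart from the other WT libraries in the level of Opa1, at 93.6 CPM against 77.6 to 80.3 CPM in the other 3. The gap took 0.833 of the group's range, just over Dixon's 95% critical value for 4 libraries. It was the only such value among 27 groups screened (9 regulators in 3 groups), where chance gives about 1.35.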

How the results depend on the processing

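Against Control, the number of regulators called stayed at 4 to 6 in WT and 5 to 7 in SIRT5F101L over all alternatives, and the calls of Ppargc1a, Tfam, Opa1 and Pink1 in both groups and of Dnm1l in SIRT5F101L held in each of them. Calls of Mfn2, Mfn1 and Nrf1 changed under the settings given with their values in the report, and the cause was not tested. In SIRT5F101L against WT the count of all genes called, 6, became 354 with no filter beyond 1 count, 2 with a robust prior, 2 with only 8 libraries, 43 by DESeq2, 16 with the length trend removed, and 0 to 2213 when 1 library was left out. With no filter 1 biogenesis, 2 fusion and fission and 2 mitophagy genes were called. Leaving out 1 library gave 0 to 5, 0 to 10 and 0 to 8 for the lists and 0 to 2 for the regulators, and in each the highest count was without SIRT5F101L replicate 1. Some differences near 0 between the plasmid groups changed sign when 1 library was left out: Ppargc1a (0.00 to 0.09 in the fits concerned), Mfn2 (0.00 to 0.02), Nrf1 (0.01 and 0.03) and Tfam (-0.00). Over all left-out libraries they ran from -0.10 to 0.09 for Ppargc1a, -0.05 to 0.02 for Mfn2, -0.04 to 0.03 for Nrf1 and -0.00 to 0.03 for Tfam. No paired analysis was possible because the labels give no number shared between groups. Depth limits Ppargc1b, with 16 to 31 counts per library.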
